A study of Mus musculus with 6 samples.

Results

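The genes described here are 7 receptors through which colony-stimulating factors and progenitor cytokines act on marrow cells: Csf3r, Csf1r, Csf2ra, Csf2rb, Csf2rb2, Kit and Flt3. They were chosen by gene symbol, and all 7 were found among the 32285 genes of the deposited count matrices. The study took marrow of long bone and jaw from C57Bl/6 mice aged 2 months, selected cells carrying CD11b (the integrin Itgam, carried by granulocytes, monocytes and macrophages) on magnetic beads, and sequenced them by 10x 3′ single-cell RNA-seq. Femur-derived cells gave 3 libraries, replicate 1 from a female mouse and replicates 2 and 3 from males. Mandibular-derived cells gave 3 libraries, all from males. The labels name no transgene and no treatment for these mice. The labels name femurs and tibiae for the long bone and the study's methods name the femur. Beyond the difference of sex in the femur, the labels do not say that libraries of one site came from separate animals. Each p-value below thus measures the spread between these libraries. That spread includes sex in the femur, and among libraries of the same sex it may be technical.

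Csf3r is the receptor of granulocyte colony-stimulating factor and is carried along the neutrophil lineage. Csf1r is the receptor of macrophage colony-stimulating factor and interleukin-34 and is the classical receptor of monocytes, macrophages and osteoclast precursors. Csf2ra is the ligand-binding chain for granulocyte-macrophage colony-stimulating factor, and Csf2rb is the beta chain it shares with the receptors of interleukin-3 and interleukin-5. The mouse has a paralog, Csf2rb2, whose product serves interleukin-3 alone. Kit and Flt3 are receptor tyrosine kinases of stem and progenitor cells for stem cell factor and Flt3 ligand, and Flt3 also serves dendritic cell development.

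The analysis covered 69776 cells of 74091 deposited barcodes, with 82962160 to 244946998 unique molecular identifiers (UMIs) per library and a median of 6924 to 9158 UMIs per cell. Femur replicate 1 kept 81.5% of its barcodes under the study's filters and the other 5 libraries kept 94.9% to 98.1%. Pairs of libraries shared between 15 and 70 cell barcodes. Each kept cell carried a cluster number in the authors' metadata, from 0 to 8. Clusters 0 to 4 and 7 were 95.2% to 100% neutrophils by the deposited ImmGen labels (calls against a mouse immune reference). In cluster 4, the deposited phase calls put 40.8% of cells in S phase and 58.1% in G2M phase, mean levels of the proliferation genes Mki67 and Top2a were 565 and 865 CPM (UMIs per 1000000 UMIs), and 58.7% of cells held UMIs of at least 2 of 5 precursor markers such as Elane and Mpo. Among the 9 clusters, mean levels of the granule gene Ltf were highest in cluster 0, of the protease genes Mmp8 and Mmp9 in cluster 3, of the stefin gene Stfa2l1 in cluster 2 and of Il1b in cluster 1, and cluster 7 had a median of 6.78% mitochondrial UMIs. In cluster 5, 50.8% of cells were labelled monocytes, 34.4% neutrophils and 6.55% macrophages, and 80% held at least 2 of 5 monocyte markers. Cluster 6 was B cells by label in 85% and cluster 8 had the highest level of the haemoglobin gene Hbb-bs. Neutrophil markers such as S100a8 were present in nearly every barcode, including 96.1% of the cells of cluster 6, which sets the background for the neutrophil-rich transcripts below.

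Csf2rb and Csf2rb2 lie next to each other on chromosome 15, 20030 bases apart and on opposite strands, and their reads can be confused. The longest stretch that both transcripts share without a mismatch is 242 bases, and it is coding in both. It lies in exon 15 of Csf2rb (mm10, plus strand, chr15:78348577-78348818, transcript positions 2476 to 2717 of 4900) and in exon 14 of Csf2rb2 (minus strand, chr15:78284630-78284871, positions 2376 to 2617 of 4740). It is shown because a read inside it cannot be assigned to either gene:
Csf2rb and Csf2rb2 shared coding stretch: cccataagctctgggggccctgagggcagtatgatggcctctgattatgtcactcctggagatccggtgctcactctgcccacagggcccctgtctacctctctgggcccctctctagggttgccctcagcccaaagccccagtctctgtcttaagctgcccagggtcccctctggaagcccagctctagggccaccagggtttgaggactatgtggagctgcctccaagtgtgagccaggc
Of all 90-base windows, 8.19% of Csf2rb and 8.47% of Csf2rb2 were shared. The shared stretch ended 2183 and 2123 bases before the transcript ends, and in the last 500 bases, where 3′ libraries take most reads, no window of 50 or of 90 bases was shared. Counts of both genes are still given as uncertain where reads began further upstream.

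Of the other members, 4 occupy the following loci of mm10 in the GENCODE vM21 annotation. Csf3r (ENSMUSG00000028859) spans chr4:126024550-126044440 on the plus strand, Kit (ENSMUSG00000005672) spans chr5:75574916-75656722 on the plus strand, and Flt3 (ENSMUSG00000042817) spans chr5:147330741-147400489 on the minus strand. Csf2ra (ENSMUSG00000059326) lies at chr19:61223957-61228429 on the minus strand.  Flt3 overlaps the antisense gene Gm26597.

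RefSeq promoter windows (GRCm38.p6) were matched for 5 members, Csf3r, Kit, Flt3, Csf2rb2 and Csf2ra, and were searched on both strands in the 250 bases before the start that RefSeq gives. The letters GAGGAA, a core of sites bound by the myeloid factor PU.1, occurred in 4 of these 5 and in 23.2% of all 32851 windows. The stretches below, with the motif or its reverse complement TTCCTC in capitals, show where these letters lie:
Csf3r, chr4:126024561-126024590, plus strand: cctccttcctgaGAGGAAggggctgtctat
Kit, chr5:75574752-75574781, plus strand: ggagagtgctagGAGGAAgaggatccaggg
Csf2rb2, chr15:78305871-78305900, minus strand: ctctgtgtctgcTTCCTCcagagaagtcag
Csf2ra, chr19:61228419-61228448, minus strand: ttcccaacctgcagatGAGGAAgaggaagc
The Csf2ra stretch holds the letters a second time, directly after the first. GENCODE vM21 starts Csf3r and Csf2ra further upstream than RefSeq does, so that the Csf3r copy and the second Csf2ra copy lie inside the gene spans given above. Flt3 held no copy. None of the 5 windows held the C/EBP letters TTGCNNAA (9.56% of all windows), the GATA letters AGATAA (9.99%) or the RUNX letters TGTGGT (14%). A match of a few letters is a description and not a binding site.

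Levels of the members in the clusters are given as UMIs per 1000000 UMIs (CPM) of a library's cells in that cluster, as the mean ± SD of the 6 libraries. The clusters were made from the genes of these same cells, so these levels are a description with no test. UMIs at transcript ends were not scaled by length, and levels are compared between cells and not between genes.

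Csf3r had its lowest mean level in the precursor-rich cluster 4 and its highest in the Il1b-rich cluster 1. Its level was 190 ± 29.1 CPM in cluster 4, 409.8 ± 55.2 in cluster 0, 768 ± 222 in cluster 3, 1724 ± 453 in cluster 2 and 2659 ± 613 in cluster 1. Cluster 1 exceeded cluster 4 by a ratio of 14 in means, and by 10.8 to 18.7 within single libraries. Each step of this order was upward in 6 of 6 libraries. Cluster 7 (1566 ± 538 CPM) and cluster 2 did not differ beyond their spread, with cluster 2 higher in 5 of 6 libraries. Cluster 5 measured 395 ± 88.9 CPM, and its order against cluster 0 split by site. It was higher in each femur library, at 403, 513 and 474 CPM against 392, 484 and 434 CPM. In each mandible library it was lower, at 331, 273 and 375 CPM against 410, 317 and 422 CPM. Cluster 8 measured 343 ± 212 and cluster 6 measured 258 ± 112 CPM, and the range of each overlapped that of cluster 4.

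**Figure D1:**
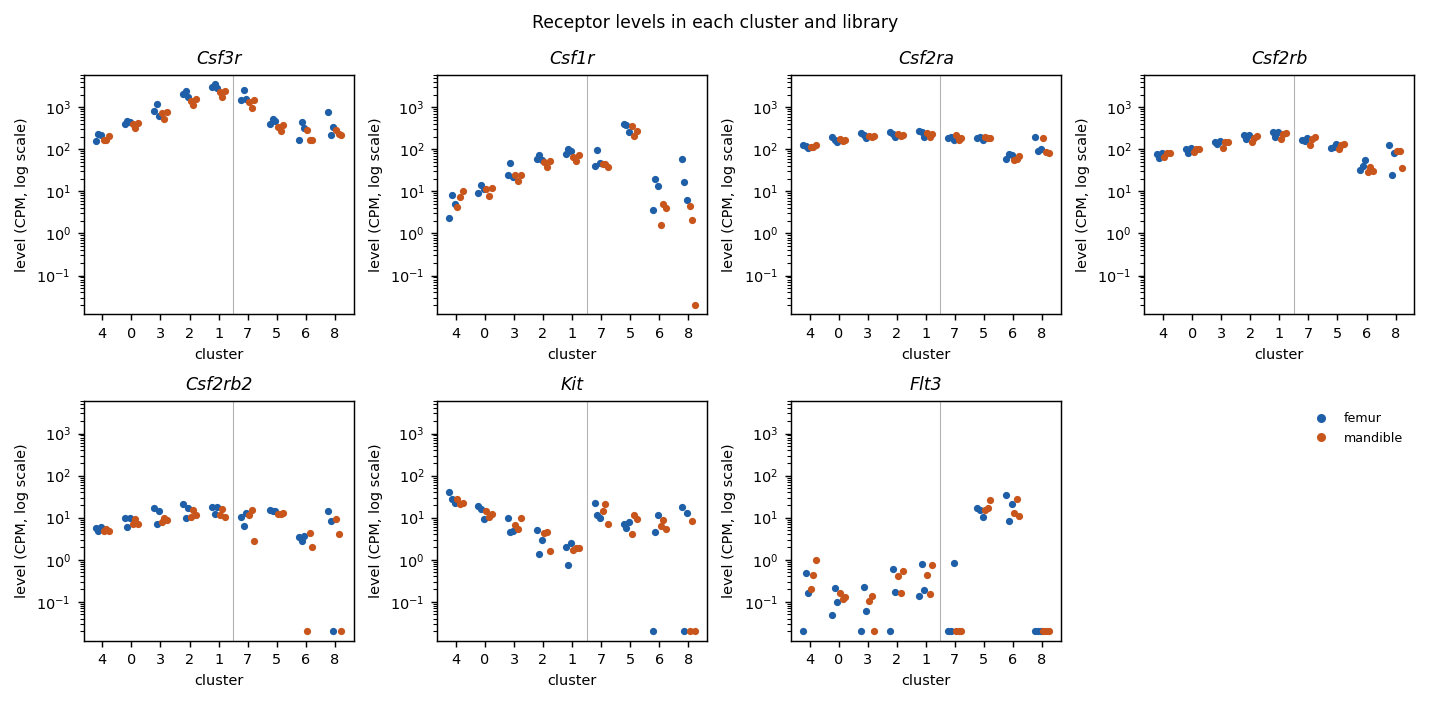
Level of each receptor in the 9 clusters in CPM on a log scale. Each point is a library, and values of 0 are drawn near the foot of the log scale. Csf3r is lowest in cluster 4 (190 CPM) and highest in cluster 1 (2659 CPM), Kit is highest in cluster 4 (27.0 CPM) and lowest in cluster 1 (1.82 CPM), and Csf1r stands highest in cluster 5 (311.5 CPM).

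Part of the Csf3r in clusters 5 and 6 lay in cells labelled neutrophils. In cluster 5, Csf3r pooled over libraries was 658 CPM in the 2529 neutrophil-labelled cells, 194 CPM in the 3734 monocytes, 126 CPM in the 482 macrophages and 20.4 CPM in the 174 dendritic cells. In cluster 6 it was 761 CPM in the 138 neutrophil-labelled cells and 33.0 CPM in the 858 B cells. Monocytes thus stood above the B cells, a type that should lack this receptor, and dendritic cells did not. At least 1 Csf3r UMI was found in 99.7% of cells of cluster 1 (median 4591 UMIs) and in 8.88% of B cells (median 3885 UMIs). After each cell was thinned to 1000 UMIs, these shares were 90.1% and 3.04%. The 3 genes whose level was most like that of Csf3r over the 54 sums of cluster and library were Sfxn5, Gcnt2 and Entpd1, with Pearson r of 0.97 each. These sums share libraries and depth, and the correlations are descriptions.

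Csf1r (ENSMUSG00000024621, chromosome 18 from 61100598 to 61132149, plus strand, overlapping Hmgxb3 on the minus strand) stood highest in cluster 5 and was present, at a lower level, in the late neutrophil clusters. Its level was 311.5 ± 77 CPM in cluster 5 and 76.9 ± 16.5 CPM in cluster 1, a ratio of 4.05 in means, higher in 6 of 6 libraries and with no overlap of the ranges. Inside the neutrophil lineage Csf1r followed the same order as Csf3r, from 6.25 ± 2.87 CPM in cluster 4 and 11.1 ± 2.36 in cluster 0 to 26.7 ± 10.1 in cluster 3 and 55.0 ± 12 in cluster 2. Cluster 1 stood above cluster 0 by a ratio of 6.94 in means, in 6 of 6 libraries. Clusters 2 and 7 (51.9 ± 21.3 CPM) did not differ beyond their spread, nor did clusters 8, 0 and 6, while cluster 4 was below cluster 0 in 6 of 6 libraries. By label, macrophages held 591 ± 107 CPM, monocytes 405 ± 83.1 CPM and dendritic cells 117 ± 63.3 CPM. Macrophages were above monocytes in 6 of 6 libraries although the ranges overlapped. B cells were near 0, at 1.85 ± 3.2 CPM. Within cluster 5, pooled Csf1r was 358 CPM in cells called G1, 128 CPM in S phase and 137 CPM in G2M. The genes most like Csf1r over the 54 sums were Mpeg1 (r of 0.94), the macrophage glycoprotein gene Cd68 and Krt80.

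Csf1r and Csf3r UMIs were found in the same barcode in 64.6% of the cells of cluster 5 (median 10085 UMIs), and in 6.82% after thinning to 1000 UMIs. In the cells of cluster 5 labelled monocytes the shares were 70.7% as counted and 6.06% thinned, and in those labelled neutrophils 75.1% and 10.1%. Barcodes that held 2 cells were not separated from single cells with both transcripts, and no doublet step is named for these data. Thinned, double-positive cells of cluster 5 made up 7.07%, 8.87% and 7.56% in the femur libraries and 7.18%, 3.25% and 6.84% in the mandible libraries. The difference in means, mandible minus femur, was -2.07 percentage points (exact permutation test, two-sided p = 0.2, smallest possible 0.1 with 3 against 3). As counted, the difference was 0.175 points in the other direction (exact p = 1).

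The receptor chains for granulocyte-macrophage colony-stimulating factor were spread more evenly over the clusters. Csf2ra ranged from 64.8 ± 8.55 CPM in cluster 6 and 119 ± 7.46 CPM in cluster 4 to 233 ± 29.1 CPM in cluster 1, and measured 123 ± 52.3 CPM in cluster 8, 168 ± 15.6 in cluster 0, 207 ± 19.8 in cluster 3 and 224 ± 21.0 in cluster 2. The ratio of cluster 1 to cluster 4 was 1.96 in means, between 1.74 and 2.18 within libraries. Csf2rb ranged from 37.3 ± 9.77 CPM in cluster 6 and 76.3 ± 9.66 CPM in cluster 4 to 226 ± 33.9 CPM in cluster 1, with a ratio of cluster 1 to cluster 4 of 2.96. Csf2rb was lower at each step from cluster 1 over 2 (194 ± 26.9 CPM), 7 (168 ± 24.7), 3 (142 ± 17.0) and 5 (119 ± 14.1) to 0 (96.4 ± 10.6) in 6 of 6 libraries, and cluster 8 measured 75.4 ± 38.3 CPM. Cluster 5 and cluster 7 held about the same Csf2ra, 185.9 ± 8.24 and 185.7 ± 19.5 CPM. Among the 7 labels with at least 10 cells in every library, Csf2ra was highest in monocytes (201 ± 11.8 CPM) and lowest in B cells (27.6 ± 8.36 CPM). Csf2rb did not differ beyond the spread between neutrophils (125 ± 10.1 CPM) and monocytes (122 ± 13.1 CPM). The 53 cells labelled basophils, too few per library for a mean, held 209 Csf2rb UMIs, or 570 CPM pooled. Neutrophils pooled held 127 CPM. Over the 54 sums Csf2ra was most like Myo1f, Fes and Fgd4 (r of 0.95 to 0.96), and Csf2rb was most like Spi1 (r of 0.94), which encodes PU.1, the kinase gene Fgr and the adaptor gene Tyrobp.

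Csf2rb2 gave few UMIs and its highest levels were 14.4 ± 3.4 CPM in cluster 1, 14.1 ± 4.3 in cluster 2 and 13.5 ± 1.34 in cluster 5, which did not differ beyond their spread. Cluster 4 measured 5.23 ± 0.492 CPM, cluster 6 measured 2.75 ± 1.58 CPM, and clusters 0, 3, 7 and 8 had means of 8.23, 10.7, 9.83 and 6.06 CPM. Among the 7 labels with at least 10 cells in every library, dendritic cells had the highest mean, 32.4 CPM, and B cells the lowest, 1.8 CPM. The 53 cells labelled basophils, too few per library for such a mean, held 57 Csf2rb2 UMIs, or 155.5 CPM pooled, against 35.1 CPM pooled in dendritic cells. Over the 54 sums Csf2rb2 was most like Gpr65, Lamp2 and Pstpip2 (r of 0.77 to 0.78). As a share of the UMIs of both beta chain genes, Csf2rb2 made up 10.3 ± 1.42% in cluster 5, with 12.4%, 11.5% and 9.51% in the femur libraries and 10.4%, 8.93% and 8.93% in the mandible libraries. The share in the neutrophil clusters 0 to 4 had means between 5.99% and 7.81%. Pooled over libraries, the share was 7.13% in neutrophils (exact binomial 95% interval 6.96% to 7.3%), 10.5% in monocytes (9.69% to 11.4%), 16.6% in macrophages (12.4% to 21.6%), 16.9% in B cells (9.31% to 27.1%), 21.4% in basophils (16.6% to 26.9%) and 29.2% in dendritic cells (23% to 36%). These intervals cover counting error only. In these pooled counts the intervals of dendritic cells, basophils, macrophages, B cells and monocytes lay above that of neutrophils, and those of stem cells (4.11% to 12.1%), pro-B-labelled cells (3.3% to 9.44%) and eosinophils (0% to 13.2%) held it. The B cell share rested mainly on 1 library, as 10 of its 13 Csf2rb2 UMIs lay in mandible replicate 3. The 858 B cells of cluster 6 held 4 Csf2rb2 and 53 Csf2rb UMIs. The basophil label covered few cells, and 94.3% of them held at least 2 of 5 basophil or mast cell markers.

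**Figure D2:**
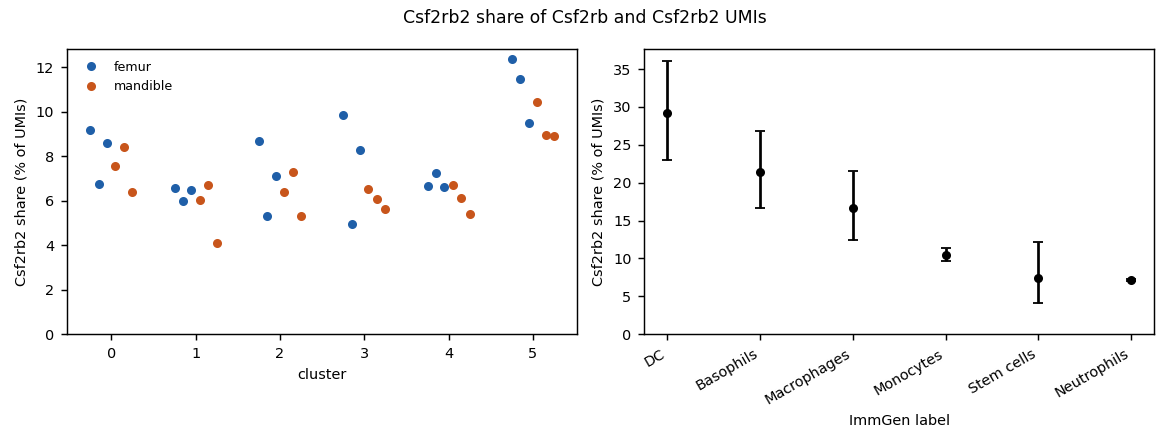
Share of Csf2rb2 in the UMIs of Csf2rb plus Csf2rb2, in percent. Points are libraries within clusters, and labels are pooled counts with exact 95% binomial intervals. Cluster 5 (mean 10.3%) lies above the neutrophil clusters 0 to 4, and dendritic cells are highest at 29.2%.

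In cluster 1, where Csf2rb was highest, the Csf2rb2 share was 6.59%, 5.99% and 6.5% in the femur and 6.05%, 6.72% and 4.09% in the mandible. The sites overlapped, and the difference of -0.742 percentage points was not distinguishable from the spread (exact permutation test, two-sided p = 0.7).

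Kit ran against the order of Csf3r. Its level was 27.0 ± 7.16 CPM in cluster 4, 13.6 ± 3.49 in cluster 0, 6.83 ± 2.34 in cluster 3, 3.3 ± 1.54 in cluster 2 and 1.82 ± 0.597 in cluster 1. Cluster 4 exceeded cluster 0 by a ratio of 1.99 in means and cluster 1 by 14.9, each in 6 of 6 libraries. Cluster 7 (14.3 ± 6.13 CPM) and cluster 0 did not differ beyond their spread, and clusters 5, 6 and 8 measured 7.67 ± 2.69, 6.07 ± 3.85 and 6.51 ± 7.78 CPM. By label, Kit measured 78.7 ± 19.6 CPM in stem cells, 57.6 ± 15.3 CPM in cells labelled pro-B, 12.8 ± 2.96 CPM in neutrophils and 1.0 ± 0.75 CPM in monocytes. No Kit UMI was found in 492 macrophages, which allows a share of up to 0.61% of such cells with a UMI. Of the 207 cells labelled stem cells, 68.6% held at least 2 of 5 stem or progenitor markers and none held 2 B lineage markers, while 62.3% held at least 2 neutrophil precursor markers, 35.8% at least 2 monocyte markers and 18.8% at least 2 erythroid markers. The pro-B label went against its markers: 4.03% of these 323 cells held at least 2 of 5 B lineage markers, while 74.0% held at least 2 neutrophil precursor markers and 59.8% at least 2 stem or progenitor markers. They are called the pro-B-labelled cells for that reason.

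Cells of 1 label lay in different clusters. Stem-labelled cells held 111 CPM of Kit in cluster 5 (100 cells) and 48.6 CPM in cluster 4 (89 cells), and pro-B-labelled cells 103 CPM (81 cells) and 51.3 CPM (214 cells). Within cluster 4, pooled Kit was 25.1 CPM in the 7258 neutrophil-labelled cells, so that the neutrophil-labelled cells themselves carried Kit. It was 26.8 CPM in S phase and 25.8 CPM in G2M. At least 1 Kit UMI was present in 37.7% of cells of cluster 4 (median 21561 UMIs) and in 2.02% of B cells (median 3885 UMIs). After thinning to 1000 UMIs these shares were 2.55% and 0.788%. The thinned share in cluster 4 was 3.69%, 3.19% and 2.17% in the femur and 2.54%, 1.6% and 2.88% in the mandible, a difference of -0.677 percentage points (exact permutation test, two-sided p = 0.4). The genes most like Kit over the 54 sums were Mlst8, Rab28 and Gpr160 (r of 0.79 to 0.81).

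Flt3 was nearly absent from the neutrophil clusters and its level per UMI was highest in cells labelled dendritic, stem, pro-B and B. Of 1745 Flt3 UMIs in all kept cells, 1493 lay in cluster 5. By label 432 lay in neutrophils (302 of them in cluster 5), 429 in monocytes, 338 in dendritic cells, 239 in pro-B-labelled cells, 165 in stem cells and 111 in B cells. Its level was 17.0 ± 5.27 CPM in cluster 5 and 19.3 ± 10.5 CPM in cluster 6, which did not differ beyond their spread, and at most 0.41 ± 0.302 CPM in clusters 0 to 4 and 7. Cluster 5 exceeded cluster 1, the next in order, by a ratio of 41.4 in means, in 6 of 6 libraries. By label, dendritic cells held 199.9 ± 21.3 CPM, stem cells 42.1 ± 17.2 CPM, pro-B-labelled cells 39.6 ± 49.4 CPM, B cells 27.3 ± 12.2 CPM and monocytes 11.5 ± 2.45 CPM. The dendritic cell level stood above every other label in all 6 libraries with no overlap, and 96.6% of the 177 cells held at least 2 of 5 dendritic cell markers. Flt3 in pro-B-labelled cells ran from 0 in femur replicate 1 and mandible replicate 1 to 133 CPM in mandible replicate 3. Pooled, it was 256 CPM in the 81 such cells of cluster 5 and 2.54 CPM in the 214 of cluster 4, and in stem cells 85.7 and 5.4 CPM.

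**Figure D3:**
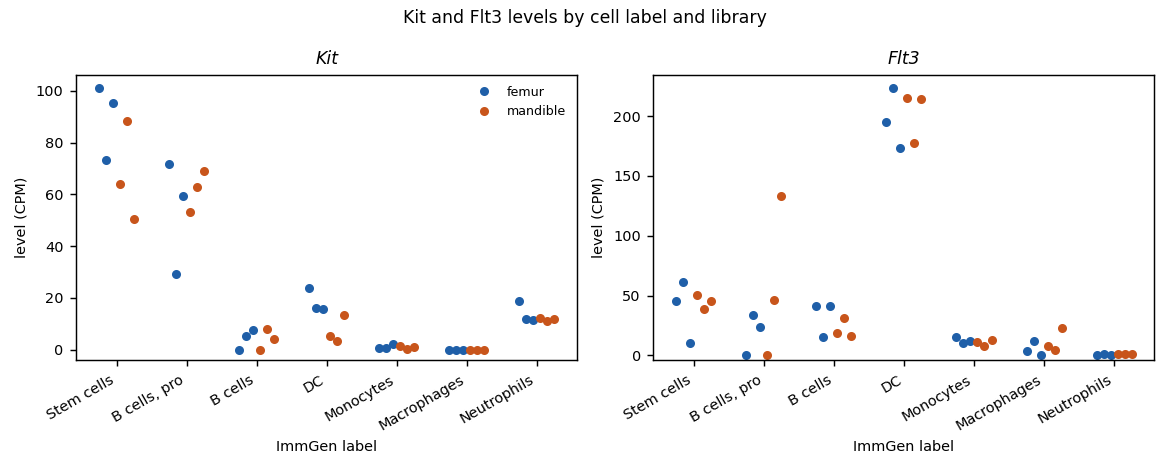
Kit and Flt3 in the ImmGen labels, in CPM, with a point per library. Kit is highest in stem cells (78.7 CPM) and pro-B-labelled cells (57.6 CPM), and Flt3 in dendritic cells (199.9 CPM).

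Both progenitor receptors were seen together in few barcodes. Of the 207 stem cells, 93 held a Kit UMI, 39 held a Flt3 UMI and 32 held both. Of the 177 dendritic cells, 115 held a Flt3 UMI and 19 held a Kit UMI, and each of those 19 also held Flt3. After thinning to 1000 UMIs, 2 stem cells and 1 dendritic cell held both, so depth sets these counts. Flt3 over the 54 sums was most like Gpr183, Ifi203 and Eef2 (r of 0.95).

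The comparison of sites asked whether mandibular-derived cells differed from femur-derived cells in these receptors. UMIs were summed per library and cluster and tested by edgeR's quasi-likelihood test with Benjamini-Hochberg adjustment over all genes of a cluster. Of 63 member and cluster pairs, 50 passed the filter on low counts and 13 did not, among them Flt3 in every neutrophil cluster. No pair was called at a false discovery rate of 0.05, where 0.0284% of all gene and cluster pairs tested were called. DESeq2 called 1 pair, Csf3r in cluster 2 (0.927% of all pairs). A block on library number over 4 libraries called Csf3r and Csf1r in clusters 1 and 2, among other pairs. It called 5.25% of all pairs, and the labels do not say what a library number marks. At an unadjusted p under 0.05 edgeR without a block gave 5 pairs, where 8.42% of all pairs passed. This number was 1 without mandible replicate 2 and 11 without femur replicate 1. Sites did not overlap in 6 of the 50 pairs, all lower in the mandible, where 12.9% of all pairs did not overlap and 7.89% did so with the mandible lower. The members' counts were not tested against these backgrounds, and the 6 pairs came from Csf3r, Csf1r and Csf2rb2 in clusters 1, 2 and 5 of the same libraries. In clusters 0 to 6 the summed ameloblast markers, of enamel-forming cells of the tooth, were at most 0.489 CPM in the femur and 4.39 to 1282 CPM in the mandible, and their part in the values below was not tested. Of the 50 pairs, 32 were lower and 18 higher in the mandible. Scaling by library size alone made this 37 and 13, and turned the direction of 9 pairs of Csf2ra, Csf2rb and Csf2rb2.

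Csf3r was lower in the mandible in each of the 9 clusters, by 0.15 to 0.71 on the log2 scale, without passing the test in any (smallest adjusted p 0.172, edgeR). The largest change was -0.71 ± 0.49 (SE) in cluster 8. The femur libraries there measured 764, 214 and 336 CPM and the mandible libraries 289.5, 229 and 223 CPM. These overlapped, and femur replicate 1 held 928 of the 1206 UMIs. In cluster 6 (-0.67 ± 0.32, SE), neutrophil-labelled cells held 1286 of 1459 Csf3r UMIs. They numbered 3, 35 and 15 in the femur and 17, 43 and 25 in the mandible, and their part was not tested. The direction of the Csf3r change was the same in all 9 clusters under DESeq2 size factors, library size alone and DESeq2. In cluster 2 the femur libraries measured 2021, 2411 and 1797 CPM and the mandible libraries 1429, 1141 and 1546 CPM. The sites did not overlap, and the log2 fold change was -0.56 ± 0.15 (SE, adjusted p 0.172 by edgeR). In this cluster 0.0416% of all genes were called, 12.2% had an unadjusted p under 0.05, and 14.9% did not overlap, 8.41% with the mandible lower. The adjusted p ran from 0.00166 to 0.538 over the alternatives. The lowest came from edgeR with a block on library number over 4 libraries, which called 1268 of 10191 genes here. Under DESeq2, which called 1.85% of genes here, the adjusted p was 0.0139. Without the female library, femur replicate 1, the log2 fold change was -0.58 (edgeR adjusted p 0.243).

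In cluster 1, Csf3r measured 3020 CPM, 3538 CPM and 2869 CPM in the femur and 2302, 1792 and 2433 CPM in the mandible. Each femur library was above each mandible library, and the log2 fold change was -0.39 ± 0.16 (SE, adjusted p 0.338 by edgeR). In this cluster 0.0842% of all genes were called and 21.8% did not overlap, 16.9% with the mandible lower. Normalisation moved all genes here: the median log2 fold change was 0.0035 with TMM and -0.13 with library size alone, so the Csf3r difference stands relative to that shift. The summed level of 7 neutrophil markers in cluster 1 was 77696 to 115030 CPM in the femur and 110728 to 143524 CPM in the mandible, and that of the monocyte markers was 228 to 348 CPM and 450 to 601 CPM. In cluster 2 the monocyte markers measured 457 to 611 CPM in the femur and 703 to 819 CPM in the mandible. T or NK cell markers measured 7.55 to 11.3 CPM in the femur and 13.7 to 16.2 CPM in the mandible in cluster 1, and 10.4 to 13.4 and 15.8 to 17.1 CPM in cluster 2, and eosinophil markers in cluster 1 measured 8.65 to 10.1 and 2.7 to 6.58 CPM. The part of these markers in the Csf3r and Csf1r differences was not tested. Cluster 1 itself made up 25.0 ± 3.43% of the cells in the femur and 18.1 ± 4.04% in the mandible.

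In cluster 5, Csf3r measured 403 CPM, 513 CPM and 474 CPM in the femur and 331, 273 and 375 CPM in the mandible, again with no overlap (log2 fold change -0.56 ± 0.18, SE, edgeR adjusted p 0.616). In this cluster 0% of all genes were called and 11.6% did not overlap, 4.29% with the mandible lower. Neutrophil-labelled cells were 37.5 ± 10.7% of cluster 5 in the femur and 29.5 ± 4.87% in the mandible, and their part in the difference was not tested. The summed dendritic cell markers in cluster 5 measured 2696 to 4230 CPM in the femur and 1370 to 2361 CPM in the mandible, and the erythroid markers 140 to 545 and 578 to 1282 CPM. Their part in the Csf3r, Csf1r, Csf2rb2 and Flt3 differences of this cluster was not tested. In the neutrophil-labelled cells of cluster 5, Csf3r measured 887, 937 and 617 CPM in the femur and 586.5, 454 and 592 CPM in the mandible. The lowest femur value lay just above the highest mandible value. These values were not tested, and no share of all genes is set beside them. In cells labelled monocytes alone the log2 fold change was -0.21 ± 0.14 (edgeR adjusted p 0.531), with 186, 225 and 198 CPM in the femur and 197, 149 and 188 CPM in the mandible, which overlapped.

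**Figure D4:**
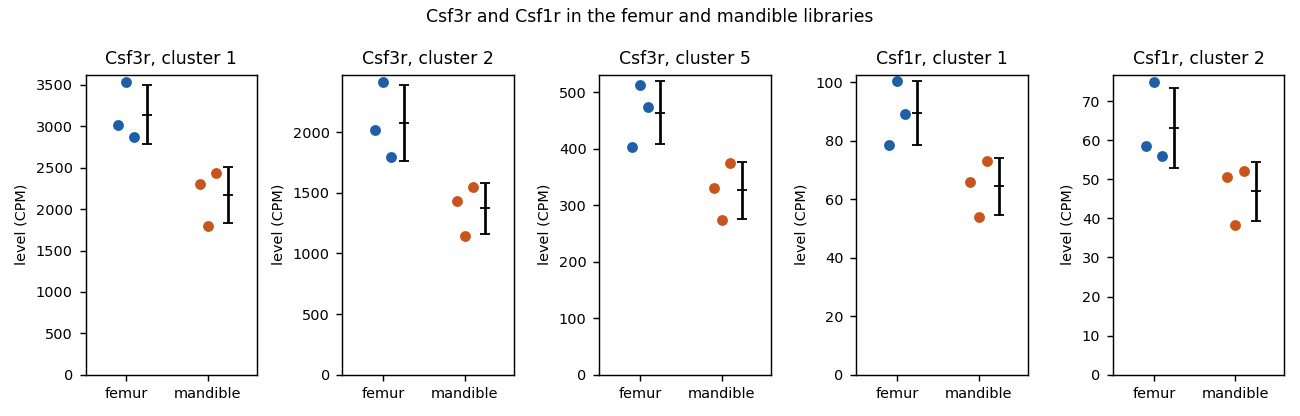
Csf3r and Csf1r in femur and mandible libraries in the clusters shown, in CPM. Each point is a library. In clusters 1 and 2 all mandible points lie below all femur points for both genes, and none of these differences passed edgeR's test across all genes.

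Csf1r had a lower mean in the mandible in 6 of the 7 clusters tested. Cluster 1 measured 78.6, 100.4 and 89.4 CPM in the femur and 66.0, 54.1 and 73.2 CPM in the mandible, which did not overlap (log2 fold change -0.34 ± 0.14, SE, edgeR adjusted p 0.343). Cluster 2 likewise did not overlap, with 58.6, 75.0 and 55.9 CPM against 50.5, 38.3 and 52.1 CPM (log2 fold change -0.38 ± 0.14, SE, edgeR adjusted p 0.281). Of all genes, 16.9% in cluster 1 and 8.41% in cluster 2 did not overlap with the mandible lower. These separations are in CPM without TMM. In cluster 1 the median log2 fold change of all genes was -0.13 with library size alone and 0.0035 with TMM. In cluster 5, where the receptor is highest, the libraries measured 396, 374 and 258 CPM in the femur and 366, 207 and 269 CPM in the mandible and overlapped (log2 fold change -0.31 ± 0.21, SE, edgeR adjusted p 0.771). In cluster 4 the log2 fold change was 0.49 ± 0.41. In cluster 8 Csf1r was below the filter, at 57.6, 16.5 and 6.34 CPM in the femur and 4.6, 2.06 and 0 CPM in the mandible. These did not overlap and came from 70, 2 and 1 against 1, 1 and 0 UMIs.

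For Csf2ra the log2 fold changes lay between -0.28 and 0.15 in the 9 clusters and for Csf2rb between -0.44 and 0.07, with every adjusted p at or above 0.806 by edgeR. In cluster 5 Csf2rb2 measured 15.2, 14.5 and 14.3 CPM in the femur and 11.9, 12.1 and 13.1 CPM in the mandible, with no overlap (log2 fold change -0.29 ± 0.14, SE, edgeR adjusted p 0.721). In cluster 3 it measured 16.7, 7.02 and 14.1 CPM against 7.69, 9.57 and 8.76 CPM and overlapped (log2 fold change -0.57 ± 0.32, SE, edgeR adjusted p 0.999). In cluster 4 Kit measured 40.4, 28.1 and 22.2 CPM in the femur and 27.6, 21.4 and 22.4 CPM in the mandible (log2 fold change -0.30 ± 0.18, SE, edgeR adjusted p 0.507), and the sites overlapped. Flt3 in cluster 5 measured 16.9, 15.5 and 10.4 CPM in the femur and 15.6, 17.0 and 26.6 CPM in the mandible and overlapped (log2 fold change 0.45 ± 0.22, SE, edgeR adjusted p 0.721). The monocyte-labelled cells of this cluster held 15.0, 10.3 and 11.9 CPM against 11.5, 7.9 and 13.6 CPM. Its neutrophil-labelled cells held 6.69, 9.09 and 6.29 CPM against 10.3, 5.8 and 6.3 CPM. Stem-labelled cells there (85.7 CPM pooled) numbered 11, 15 and 8 in the femur and 5, 44 and 17 in the mandible. Pro-B-labelled cells there (256 CPM pooled) numbered 10, 9 and 8 against 1, 35 and 18. Dendritic cells there (203 CPM pooled) numbered 35, 23 and 22 against 16, 38 and 40. Their part in the Flt3 value was not tested.

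**Figure D5:**
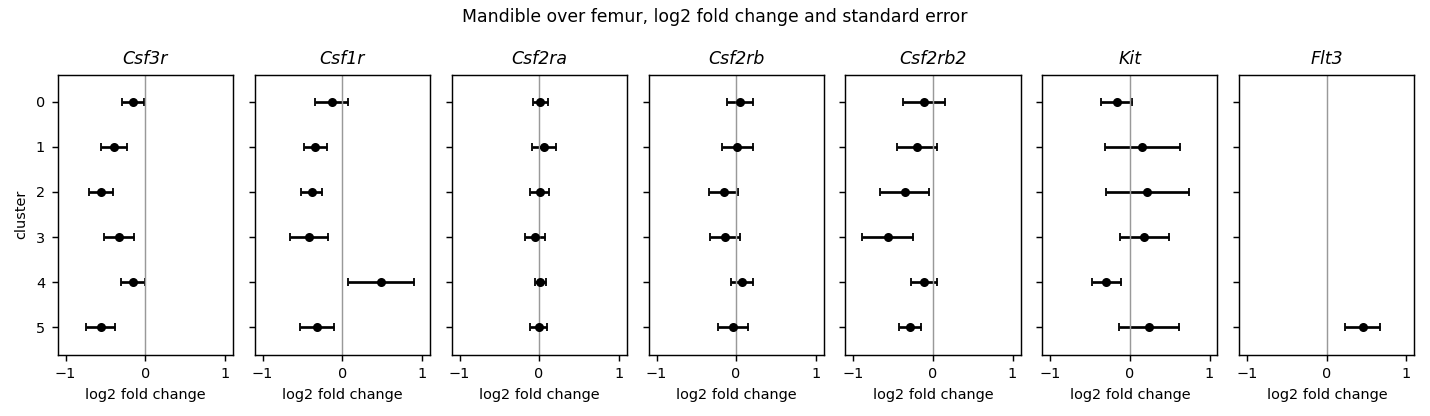
Log2 fold change, mandible over femur, of the receptors in the clusters shown, where they passed the filter on low counts, with standard errors from edgeR. Csf3r lies below 0 in every cluster shown, and no point passed edgeR's test across all genes.

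By ImmGen label, 35 of 49 member and label pairs were tested and none was called by edgeR, where 0.0255% of all gene and label pairs were called. DESeq2 called none of the members, and 0.96% of all pairs. At an unadjusted p under 0.05 there were 5 pairs (8.06% of all pairs), a number that was 2, 3 or 8 when mandible replicate 2, 3 or 1 was left out. Sites did not overlap in 3 of the 35 pairs tested, all lower in the mandible (12.5% of all pairs, 6.19% with the mandible lower). Among pairs below the filter on low counts, the CPM of Csf3r and Kit in dendritic cells was lower in each mandible library than in each femur library. That of Csf2rb2 in pro-B-labelled cells was higher. These rest on few UMIs, for Csf3r 15, 5 and 6 in the femur and 2, 1 and 5 in the mandible. Kit had 7, 4 and 3 against 1, 1 and 6 UMIs, and Csf2rb2 had 2, 0 and 2 against 3, 5 and 3. No share of all untested genes is set beside them. In monocytes Csf1r measured 490.1, 480 and 403 CPM in the femur and 428, 266 and 362 CPM in the mandible, which overlapped (log2 fold change -0.40 ± 0.17, SE, edgeR adjusted p 0.347). In these cells the summed macrophage markers measured 343 to 449 CPM in the femur and 128 to 280 CPM in the mandible, the dendritic cell markers 3015 to 4404 and 1173 to 1986 CPM, the monocyte markers 5735 to 6717 and 7371 to 7602 CPM, and the neutrophil precursor markers 194 to 686 and 744 to 993 CPM. Their part in the values of monocytes was not tested. Csf2rb2 in monocytes did not overlap, with 17.6, 15.7 and 15.2 CPM against 13.4, 13.1 and 11.6 CPM (log2 fold change -0.37 ± 0.16, SE, edgeR adjusted p 0.344).

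In macrophages Csf2ra measured 106, 128 and 134 CPM in the femur and 88.3, 80.6 and 86.4 CPM in the mandible, with no overlap (log2 fold change -0.59 ± 0.22, SE, edgeR adjusted p 0.642). In these cells the summed neutrophil markers measured 8939 to 14478 CPM in the femur and 2635 to 8904 CPM in the mandible, the dendritic cell markers 7951 to 10788 and 4677 to 6966 CPM, the B lineage markers 92.7 to 99.3 and 124 to 208 CPM, and the stem or progenitor markers 121 to 130 and 153 to 187 CPM. Their part was not tested. Csf1r in macrophages had the higher mean in the mandible, 661 against 521 CPM, and its ranges overlapped (log2 fold change 0.26 ± 0.22, SE, edgeR adjusted p 0.81). In pro-B-labelled cells Csf3r measured 110, 111 and 113 CPM in the femur and 58.4, 78.9 and 95.3 CPM in the mandible (log2 fold change -0.54 ± 0.18, SE, edgeR adjusted p 0.407). In B cells Csf3r ran from 8.31 to 85.5 CPM in the femur and from 17.2 to 34.9 CPM in the mandible (log2 fold change -1.62 ± 0.46, SE, edgeR adjusted p 1.0, and 0.0027 to 1.0 over the alternatives), while the summed neutrophil markers there were 2776 to 5890 CPM and 3241 to 12471 CPM, and the neutrophil precursor markers 14.9 to 27.4 CPM and 49.9 to 1396 CPM. Their part in this value was not tested. Flt3 in pro-B-labelled cells measured 0, 34.0 and 24.0 CPM in the femur and 0, 46.3 and 133 CPM in the mandible (log2 fold change 1.89 ± 0.88, SE, edgeR adjusted p 0.509), and with no filter on low counts its edgeR adjusted p was 8.96e-07. The split of this label's cells between clusters differed by library, with 10, 9 and 8 of them in cluster 5 and 49, 18 and 37 in cluster 4 in the femur, and 1, 35 and 18 in cluster 5 and 19, 57 and 34 in cluster 4 in the mandible. In those of cluster 5 alone, Flt3 measured 0, 199 and 246 CPM in the femur and 0, 148 and 427 CPM in the mandible, which overlapped. Csf1r in all pro-B-labelled cells was below the filter, at 5.43, 6.79 and 5.06 CPM against 0, 24.6 and 25.5 CPM. In stem cells the 6 members tested had log2 fold changes between -0.54 and 0.32, with every edgeR adjusted p at 1.0, and in dendritic cells the 4 tested lay between -0.82 and 0.03, with edgeR adjusted p of at least 0.746.

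Over all cells of a library, 0 of the 7 members were called by edgeR and by DESeq2, where 0% of 16381 genes were called by edgeR and 1.46% by DESeq2. The unadjusted p was under 0.05 for 2 members (9.37% of all genes), for 1 without femur replicate 1 or 3 or mandible replicate 2, and for none without mandible replicate 3. Csf3r measured 855 CPM, 1262 CPM and 762 CPM in the femur and 758, 462 and 655 CPM in the mandible. It was the 1 member with no overlap (10.1% of all genes, 5.69% with the mandible lower), and its log2 fold change was -0.64 ± 0.23 (SE, adjusted p 0.44 by edgeR). Flt3 measured 1.7, 2.8 and 1.03 CPM in the femur and 2.24, 3.76 and 5.71 CPM in the mandible and overlapped (log2 fold change 1.08 ± 0.39, SE, edgeR adjusted p 0.442). In sums over all cells, fewer cells of a type and less RNA per cell cannot be told apart. Cluster 5 held 9.67 ± 3.05% of the cells in the femur and 13.7 ± 2.24% in the mandible, and cluster 6 held 0.668 ± 0.603% and 3.0 ± 1.69%.

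Whether a site difference was unequal between clusters was tested by limma on the difference of each cluster from cluster 0 within a library. None of the 30 member and cluster combinations was called (0.452% of all gene and cluster combinations), and 4 had an unadjusted p under 0.05 (11.6%). Csf3r in cluster 2 exceeded cluster 0 by 2.24 on the log2 scale in the femur and by 1.84 in the mandible, a difference of -0.40 ± 0.093 (SE, limma adjusted p 0.0646). In this comparison 1.39% of 9584 genes were called. The same quantity for cluster 1 was -0.25 ± 0.11 (limma adjusted p 0.357, 1.01% of genes called). In cluster 5, Csf3r differed from cluster 0 by 0.14 in the femur and by -0.26 in the mandible. The site difference there was -0.40 ± 0.095 (limma adjusted p 0.222, 0% of genes called). No gene was called for clusters 3 and 4 either (0%). Csf2rb gave -0.20 ± 0.072 for cluster 2 and -0.19 ± 0.073 for cluster 3 (limma adjusted p 0.172 and 0.486). The adjusted p of Csf3r in cluster 2 ran from 0.00894 to 0.226 over the alternatives, and it passed without femur replicate 3 and with library size alone (0.0365). The shares of all genes called under these settings are not given, so these passes stand without a background.

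The ligands and signal transducers of these receptors were followed as a list of 62 genes. Among clusters 0 to 6, Csf1, the macrophage colony-stimulating factor, was highest in cluster 1 at 74.4 CPM. It measured 14.2 CPM in cluster 5, 11.4 in cluster 2, 10.8 in cluster 6, 8.13 in cluster 0, 5.33 in cluster 4 and 2.98 in cluster 3. Kitl, the stem cell factor, was seen mainly in cluster 5 at 15.4 CPM, and Flt3l lay between 2.91 and 8.23 CPM in clusters 0 to 6. The granulocyte, granulocyte-macrophage, interleukin-3 and interleukin-5 ligands were almost absent, with 16 UMIs of Csf3, 1 of Csf2, 1 of Il5 and 0 of Il3 in all kept cells. Of 395 list gene and cluster pairs tested between sites, 0 were called by edgeR (0.0284% of all pairs), 6 by DESeq2 (0.927%), and 34 had an unadjusted p under 0.05 (8.42%). In cluster 1, 9 of 47 genes (19.1%) had such a p against 13.6% of all genes, 6 of them higher in the mandible, and the list had a median log2 fold change of -0.02. In cluster 2 it was 10 of 46 genes (21.7%) against 12.2%, 6 of them higher, and a median of -0.11. In cluster 5 it was 3 of 57 (5.26%) against 7.11%, with a median of -0.05. Clusters 0, 3, 4, 6, 7 and 8 held between 0 and 4 such genes, at shares of 0% to 8.33% against 1.1% to 13% of all genes.

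The list genes with the smallest p in each direction, which did not pass, were these. In cluster 2, Csf1 measured 14.5, 18.1 and 15.8 CPM in the femur and 7.62, 6.8 and 5.61 CPM in the mandible (log2 fold change -1.23 ± 0.19, SE, edgeR adjusted p 0.0606), with no overlap. Cebpe, a transcription factor of granule-forming neutrophils, measured 42.8, 50.8 and 47.2 CPM against 78.2, 75.0 and 84.5 CPM (0.79 ± 0.13, edgeR adjusted p 0.0701), also with no overlap. In cluster 1, Csf1 measured 82.1, 95.7 and 108.9 CPM against 57.5, 54.5 and 47.6 CPM (-0.71 ± 0.16, edgeR adjusted p 0.123). Mapk3, the kinase ERK1, gave 0.56 ± 0.13 there (edgeR adjusted p 0.13). In cluster 0 Csf1 gave -0.73 and Mapk3 0.36, in cluster 3 the adaptor gene Gab2 gave -0.35 and the feedback inhibitor gene Socs1 gave 0.69, and in cluster 4 Csf1 gave -0.52 and Irf8, a monocyte and dendritic cell factor, gave 2.81. In cluster 5 Gab2 gave -0.36 and Il3ra, the interleukin-3 receptor alpha chain, gave 0.55. Each of these had an edgeR adjusted p above 0.05.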

How the data were processed

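Cells were CD11b+ marrow cells of 3 femur and 3 mandible libraries. The authors aligned reads to mm10 with Cell Ranger (7.0.1 in the submitters' processing notes, 7.1.0 in the matrix header) and deposited raw UMI counts per gene and barcode, with per-cell metadata made with Seurat. The deposited counts were used with the metadata's clusters (resolution 0.1), ImmGen labels and phases, and the metadata's percentage of mitochondrial UMIs is as the authors deposited it. Kept barcodes had more than 600 and fewer than 6000 genes and at most 20% mitochondrial UMIs. No doublets were removed, and 1 alternative left out the 5% of cells with the most UMIs in each library.

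Counts were summed per library within a cluster or a label with at least 10 cells in every library. edgeR 4.0.16 (TMM, filterByExpr, quasi-likelihood test) compared the sites, with DESeq2 1.42.0 as an alternative, and limma 3.58.1 (prior count 2) tested differences between clusters, in R 4.3.3. SE of a fold change is its size over the root of the F value. Levels are CPM of the summed counts and fold changes follow TMM. Single values used an exact permutation test over 20 assignments. Cells were thinned to 1000 UMIs (88 cells had fewer). Likeness was the Pearson correlation of log2(CPM + 1) over 54 sums, among genes with a mean of at least 10 CPM. The scripts were tested on simulated data. The naming rule covered all 7 members in every cluster and label, and the text gives some of them as means or ranges. Of the 62 list genes, those called and, in clusters 0 to 5, the smallest p in each direction were named. The members and lists were chosen with earlier results of these data known. Deviations of samples with the same title number were negatively correlated for at least 1 number in every cluster. Those with the same library number, which 2 pairs share, were positively correlated in clusters 0 to 7 (0.00309 to 0.501) and negatively in cluster 8, but the labels do not say what they mark and 2 pairs are too few to call the samples paired, so both blocks are alternatives. Columns of the authors' own comparisons in the marker tables were not used.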

Additional observations from a re-analysis of the deposited data

Results flagged for a closer look

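The values here lie outside the comparisons above, in the barcodes that the study's filters left out, and were picked because more than 3 UMIs of a receptor were found there. They are pooled over libraries, with no test and no control. In the 3261 barcodes with 600 or fewer genes, Csf3r measured 988 CPM, Csf1r 125 CPM, Csf2ra 154 CPM, Csf2rb 109 CPM, Csf2rb2 9.84 CPM, Kit 10.98 CPM and Flt3 1.89 CPM. In the 480 barcodes with 6000 or more genes, Csf3r measured 526 CPM, Csf1r 73.7 CPM, Csf2ra 162 CPM, Csf2rb 114 CPM, Csf2rb2 8.92 CPM, Kit 26.2 CPM and Flt3 5.9 CPM. In the 573 barcodes above 20% mitochondrial UMIs, Csf3r measured 1099 CPM, Csf1r 56.8 CPM, Csf2ra 102 CPM, Csf2rb 98.0 CPM, Csf2rb2 4.3 CPM and Kit 6.02 CPM. The kept cells pooled measured 802 CPM for Csf3r, 59.7 CPM for Csf1r, 171 CPM for Csf2ra, 124 CPM for Csf2rb, 9.97 CPM for Csf2rb2, 12.7 CPM for Kit and 2.41 CPM for Flt3. By library, the barcodes with 6000 or more genes ran from 348 to 885 CPM for Csf3r, from 21.7 to 41.1 CPM for Kit and from 0.478 to 28.2 CPM for Flt3, and those with 600 or fewer genes from 99.2 to 214 CPM for Csf1r. Groups of 3 libraries are too small for a test of single outlying libraries.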

How the results depend on the processing

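For the counts of calls and the member values that the text turns on, 267 recomputed values kept their direction and side of the threshold, 21 newly passed it or gave calls where there were none, and 2 reversed. Among all member pairs tested, library size alone turned the direction of 9 cluster and 3 label pairs. For members in clusters, 0 calls became 1 with DESeq2. For labels they became 2 with no filter on low counts, where 1.15% of all pairs were called (Csf3r in B cells, log2 fold change -1.55, edgeR adjusted p 0.0027, and Flt3 in pro-B-labelled cells, 1.88, edgeR adjusted p 8.96e-07). With a library left out they became 0 to 1, the 1 being Csf1r in pro-B-labelled cells without mandible replicate 1, where 1.34% of all label pairs were called. The signalling list gave 6 calls with DESeq2, where 0.927% of all cluster pairs were called, and 9 with no filter (1.06%). It gave 1 with library size alone (0.0828%, chosen after seeing the data) and 0 to 1 with a library left out, the 1 without mandible replicate 1 (0.145%). The test between clusters gave 1 with library size alone and 0 to 2 with a library left out, the 2 without femur replicate 3. The shares of all combinations called under these settings are not given, so these counts stand without a background. The causes were not tested. Samples share numbers in 2 ways. By title number, correlations of deviations from site means within cluster 2 were 0.0176, -0.392 and 0.181, and the replicate block called no member. By library number, shared by 2 pairs, they were 0.478 and 0.318, and the replicate block on those 4 libraries called 9 member and cluster pairs (Csf3r in clusters 1, 2, 4, 6 and 7, Csf1r in clusters 1, 2 and 3, and Kit in cluster 2), 1 label pair (Csf3r in B cells) and 19 list pairs, where 5.25% of all gene and cluster pairs and 1.3% of all gene and label pairs were called. It called 1587 of 11257 genes in cluster 1. The labels do not say what a library number marks. The Csf2rb2 share in cluster 1 differed by -1.29 to 0.0232 points with a library left out, reversing without mandible replicate 3. The Kit share in cluster 4 differed by -1.1 to -0.307 points, and the double-positive share in cluster 5 by -2.78 to -0.819, or 0.175 as counted. Counts were too low to test 13 member and cluster pairs.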
